A study of Mus musculus with 12 samples.

Results

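The 4 probes described here carry the RefSeq accessions of Gapdh, Ldhal6b, G6pd2 and Gk, enzymes of glucose and glycerol metabolism, and were chosen by name from the 60915 probes of a mouse lncRNA and mRNA array. Each was printed as 20 spots on every array. The arrays held left ventricular RNA of 12 C57BL/6J mice in 4 groups of 3, with 1 mouse in each group labelled female. All 4 groups carried the GRK-beta1AR transgene, which puts in cardiomyocytes a mutant beta1-adrenergic receptor that lacks the sites for G protein-coupled receptor kinases, so no group was free of it. The TG vehicle mice (9, 9 and 12 weeks old) and TG ISO mice (9, 10 and 10 weeks) carried that transgene alone. The DTG vehicle mice (each 10 weeks) and DTG ISO mice (10, 11 and 12 weeks) also carried a miR-150 transgene driven by the ubiquitous CAG promoter, so the added microRNA was not limited to cardiomyocytes. ISO groups received the beta-adrenergic agonist isoproterenol and vehicle groups the solvent for 1 week before the ventricle was taken. The comparisons ask how each enzyme probe differed with ISO in either genotype, and with the miR-150 transgene under either treatment. The ventricle was measured whole, so fewer cells of a type and less RNA per cell cannot be told apart.

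Glycolysis splits glucose to pyruvate, and the pentose phosphate pathway branches from its first intermediate to make NADPH and ribose. Gapdh, glyceraldehyde-3-phosphate dehydrogenase, is the glycolytic enzyme that oxidises glyceraldehyde 3-phosphate, and it is also widely used as a reference gene. The study took it as the reference when it measured genes and long noncoding RNAs by quantitative PCR. Lactate dehydrogenases convert pyruvate to lactate and back, and Ldhal6b, lactate dehydrogenase A-like 6B, is a member of that family best known from testis. G6pd2 is an intronless copy of G6pdx, whose product glucose-6-phosphate dehydrogenase is the entry enzyme of the pentose phosphate pathway, and it too is known from testis. Gk, glycerol kinase, phosphorylates glycerol to glycerol 3-phosphate, which feeds glycolysis and the making of triglycerides and phospholipids. The mammalian heart draws most of its energy from fatty acids and turns to glucose under load. The probes' own sequences were not used here, so signal from a close relative (G6pdx for the G6pd2 probe, other lactate dehydrogenases for the Ldhal6b probe) cannot be told apart from that of the named gene.

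Between DTG ISO and TG ISO, 23.3% of all probes were higher in DTG ISO with no overlap between arrays, so this pattern was common. Of the 4 enzyme probes only those of Gk and Ldhal6b had it, and their start regions are shown for that reason. Each is a RefSeq sequence of the GRCm38.p6 build, 250 bases before the gene's start and 50 after it, on the minus strand and written 5′ to 3′, and all 4 genes were matched by symbol. Gk lies at chrX:85776770-85777069 and Ldhal6b at chr17:5418718-5419017. Capitals mark the cAMP response element core TGACG, the E-box CACGTG and the TATA box TATAAA on either strand.
Gk: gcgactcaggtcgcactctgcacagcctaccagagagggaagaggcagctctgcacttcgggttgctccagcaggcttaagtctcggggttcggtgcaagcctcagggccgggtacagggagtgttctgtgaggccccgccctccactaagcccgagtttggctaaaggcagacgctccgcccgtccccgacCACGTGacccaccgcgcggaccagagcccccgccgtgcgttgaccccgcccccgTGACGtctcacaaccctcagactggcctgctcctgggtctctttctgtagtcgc
Ldhal6b: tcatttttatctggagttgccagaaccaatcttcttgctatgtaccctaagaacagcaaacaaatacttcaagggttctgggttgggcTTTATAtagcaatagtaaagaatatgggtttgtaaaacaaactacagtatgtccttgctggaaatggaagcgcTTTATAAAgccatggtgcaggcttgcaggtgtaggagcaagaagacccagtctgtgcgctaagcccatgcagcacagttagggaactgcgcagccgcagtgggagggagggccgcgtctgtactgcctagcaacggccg

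The Gk window held 1 TGACG core, its first base 4 bases before the start, and 1 E-box beginning 58 bases before the start. The Ldhal6b window held 3 matches to TATAAA, of which 1 on each strand overlapped. Among 32851 start regions of the same length, 20.8% held TGACG, 7.15% held CACGTG and 13.6% held TATAAA. The full palindrome TGACGTCA was in none of the 4 windows and in 1.79% of all. The Gapdh window (chr6:125165724-125166023, minus strand) and the G6pd2 window (chr5:61808593-61808892, plus strand) held none of these letters. The windows also differed in base composition. G and C made up 65.7% of the Gk window with 23 CpG dinucleotides and 56.7% of the Gapdh window with 12. They made up 48.3% of the Ldhal6b window with 8 and 32.7% of the G6pd2 window with 1. The median over all start regions was 52.7% with 7 CpG. These matches describe letters and do not show that a factor binds.

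Signals are given as log2 of the background-subtracted signal minus log2 of the 75th percentile of that array, so 0 is the 75th percentile. That percentile ran from 241 to 539 signal units, and 53.0% to 79.4% of probes were well above background on an array. Across all probes 4 of the 12 arrays correlated best with an array of their own group. The mean correlation of TG vehicle 3 was 0.936 to its own group and 0.983 to TG ISO 1 and 2, whereas that of TG ISO 3 was 0.948 to its own group and 0.981 to TG vehicle 1 and 2. These were the only arrays of scan 3, a scan being the set of arrays that share a scan time in the file headers. DTG vehicle 3 was scanned with the 3 DTG ISO arrays (scan 1), and its mean correlation was 0.969 to its own group and 0.987 to DTG ISO. The other 6 arrays were scan 2, and scans 2 and 3 were taken to share slide 2 because their positions on it did not repeat. Arrays of DTG ISO and TG ISO never shared a scan, so their difference has no value within a scan, and a fit with scan as a block reaches it only through the vehicle arrays. Among the probes used here, those other than named control probes had no gene name, so the tissue label was not checked against cardiac markers, nor were other genes of glycolysis or the pentose phosphate pathway described.

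None of the 4 enzyme probes passed an adjusted p of 0.05 in any of the 7 comparisons (limma over 12 arrays, Benjamini-Hochberg over 45144 probes). Gk and Ldhal6b were higher in DTG ISO than in TG ISO by 1.56-fold and 1.72-fold with no overlap between arrays, but 23.3% of all probes behaved this way there. The Ldhal6b fold includes an array, TG ISO 3, on which the probe was not well above background, and its log2 difference of 0.78 was −0.059 after normexp background correction and 0.098 with scan as a block. In the 4 two-group comparisons under this scaling, Gapdh and G6pd2 differed by at most 0.17 on the log2 scale, less than the pooled SD among arrays of a group, 0.28 for Gapdh and 0.21 for G6pd2. The range over the 12 arrays was 0.73 for Gapdh, 1.38 for Ldhal6b, 0.63 for G6pd2 and 1.15 for Gk. The median range of all probes tested was 1.45, and 10.7%, 46.5%, 6.53% and 34.8% of probes in that order had a smaller one.

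**Figure D1:**
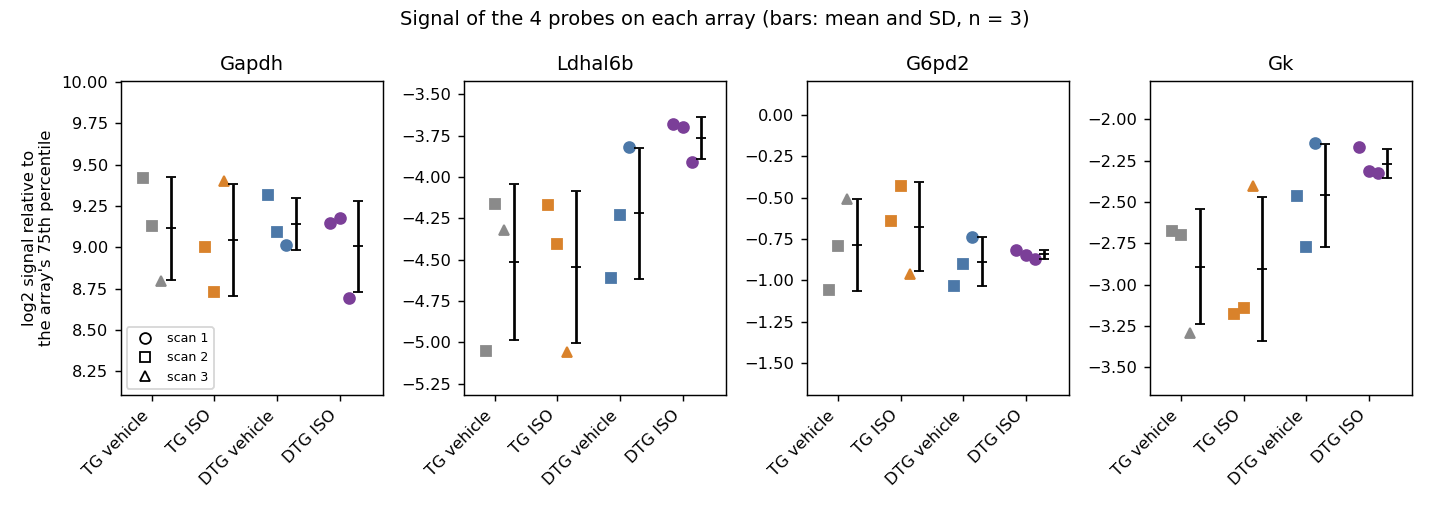
Log2 signal relative to the array's 75th percentile (y axis, each panel spanning the same number of log2 units) for the 4 probes in the 4 groups. Each point is 1 array, marker shape gives the scan, and bars show the group mean and SD (n = 3). Gapdh and G6pd2 overlap in all groups, whereas the DTG ISO arrays of Ldhal6b and Gk lie above those of TG ISO.

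Gapdh was 9.42, 9.13 and 8.80 in TG vehicle replicates 1 to 3, a mean of 9.12 ± 0.31 (SD, n = 3). It was 9.00, 8.73 and 9.40 in TG ISO, a mean of 9.04 ± 0.34. The TG groups covered nearly the same span, and in scan 3 the vehicle array was the low one and the ISO array the high one. In DTG vehicle it was 9.32, 9.09 and 9.01 (9.14 ± 0.16) and in DTG ISO 9.15, 9.18 and 8.69 (9.01 ± 0.27). DTG ISO 3 was the lowest of the 12 arrays and TG vehicle 1 the highest, 1.66-fold apart. Every Gapdh spot was well above background and none was saturated, with a raw median signal of 139722 to 236932. The SD among spots of an array had a median of 0.058 log2, against a pooled SD of 0.28 among arrays of a group. The former covers the spots alone, whereas mice, arrays and scans all enter the latter.

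In the limma fit, Gapdh in TG ISO minus TG vehicle was −0.072 (95% interval −0.62 to 0.47, adjusted p = 0.999). It was −0.14 (−0.68 to 0.41, adjusted p = 0.976) in DTG ISO minus DTG vehicle. The latter moved with the scaling, to −0.40 after quantile normalization (limma adjusted p = 0.875) and −0.37 in the authors' log2 values (limma adjusted p = 0.853), and ISO minus vehicle averaged over genotypes was then −0.31 and −0.29. The genotype differences were 0.026 (−0.52 to 0.57, adjusted p = 0.984) under vehicle and −0.039 (−0.58 to 0.51, adjusted p = 0.927) under ISO. The widest bounds of these 4 intervals stood at 0.62-fold and 1.49-fold, so differences inside these bounds are not excluded. With scan 3 left out, the difference between DTG ISO and TG ISO was 0.14.

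Other spots of the arrays, control spots named for human and rat GAPDH and printed 10 times each, gave a further view, chosen after the data were seen. They are named for other species, and what they hold of mouse Gapdh was not tested. Across the 12 arrays, which share their scaling with the Gapdh probe, the correlation with it was 0.85 for Rat-GAPDH_3, 0.71 for Human-GAPDH_3, 0.70 for Rat-GAPDH_5 and 0.53 for Human-GAPDH_5. TG vehicle 3 and TG ISO 2 were low and TG ISO 3 was high in all 5. The highest and lowest arrays of the Gapdh probe, TG vehicle 1 and DTG ISO 3, were 3.22 and 3.37 in Human-GAPDH_5, the reverse order. In DTG ISO minus TG ISO the means of the 4 control probes differed by 0.039 (Rat-GAPDH_3), 0.047 (Rat-GAPDH_5), 0.14 (Human-GAPDH_5) and 0.32 (Human-GAPDH_3), against −0.039 for the Gapdh probe. Control spots named for PGK1, the next enzyme of glycolysis, varied more among themselves. Human-PGK1_3 had a correlation of 0.56 with Gapdh, Human-PGK1_5 and Rat-PGK1_5 had −0.11 each, and Rat-PGK1_3 had −0.46, the last with all its spots well above background on 8 of 12 arrays.

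**Figure D2:**
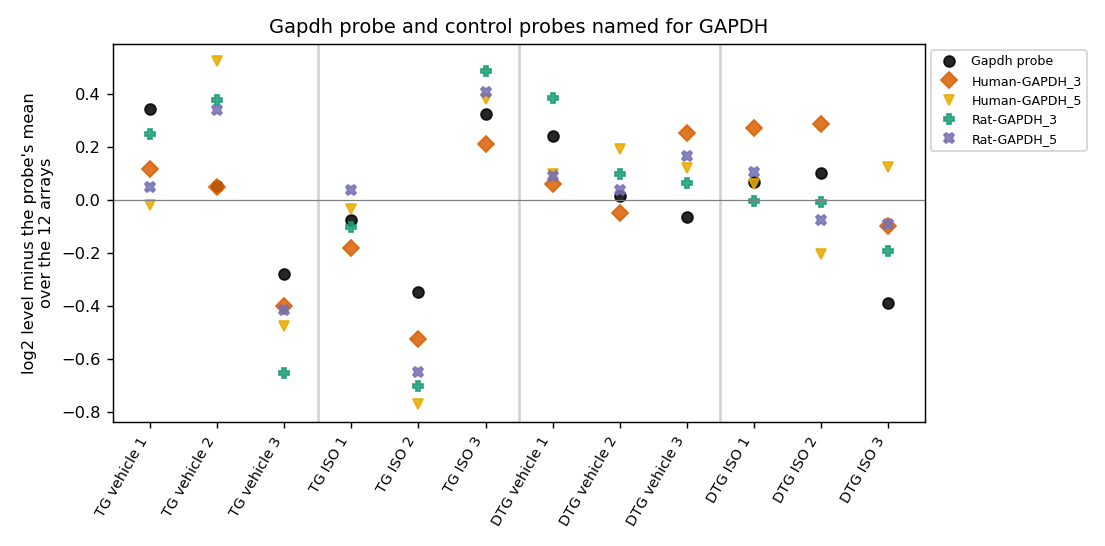
Log2 level minus each probe's mean over the 12 arrays (y axis) for the Gapdh probe and the 4 control probes named for human and rat GAPDH, by array (x axis). Points are array means over spots. All 5 lie below 0 on TG vehicle 3 and TG ISO 2 and above 0 on TG ISO 3.

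G6pd2 was −1.06, −0.79 and −0.51 in TG vehicle replicates 1 to 3 (−0.79 ± 0.28, SD, n = 3). It was −0.64, −0.43 and −0.96 in TG ISO (−0.68 ± 0.27). As for Gapdh, the scan 3 arrays stood at the far ends of their groups, but the other way round, with TG vehicle 3 high and TG ISO 3 low. DTG vehicle had −1.03, −0.90 and −0.74 (−0.89 ± 0.15) and DTG ISO −0.82, −0.84 and −0.87 (−0.84 ± 0.03). The DTG ISO arrays lay closest together, and the groups overlapped in all 4 pairs compared. All 240 spots were well above background, at a raw median of 159.5 to 396 where the median of the 300 negative spots was 25 to 38. The fitted differences were 0.11 for TG ISO minus TG vehicle (95% interval −0.35 to 0.57), 0.045 for DTG ISO minus DTG vehicle (−0.42 to 0.51), −0.10 for DTG vehicle minus TG vehicle (−0.56 to 0.36) and −0.17 for DTG ISO minus TG ISO (−0.63 to 0.29). Their adjusted p-values in limma were 0.999, 0.996, 0.914 and 0.615. With scan as a block, DTG ISO minus TG ISO was −0.40 (limma adjusted p = 0.998). With the 11 other named control probes as the reference, the last of these was 0.16 and the Gapdh one 0.29, since that reference moved the median of all probes in DTG ISO minus TG ISO from 0.12 to 0.45.

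Gk was −2.68, −2.70 and −3.29 in TG vehicle replicates 1 to 3 (−2.89 ± 0.35, SD, n = 3) and −3.17, −3.14 and −2.40 in TG ISO (−2.91 ± 0.44). The group means were nearly equal, but within each TG group the scan 3 array lay apart from the other 2. In DTG vehicle Gk was −2.47, −2.77 and −2.14 (−2.46 ± 0.31) and in DTG ISO −2.17, −2.31 and −2.32 (−2.27 ± 0.09). All 3 DTG ISO arrays were above the highest TG ISO array, TG ISO 3. The 4 arrays of scan 1 (DTG ISO 1 to 3 and DTG vehicle 3) were the 4 highest of the 12, from −2.32 to −2.14, and the other 8 reached −2.40. All 240 spots were well above background, at a raw median of 67.3 to 131, and the median SD among spots was 0.12.

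Gk was higher in DTG ISO than in TG ISO by 0.64 (SE 0.27, 95% interval 0.038 to 1.24, limma adjusted p = 0.170). Under vehicle the genotype difference was 0.43 (−0.17 to 1.03, adjusted p = 0.863), and it ran from 0.23 without TG vehicle 3 to 0.59 without DTG vehicle 2. Averaged over treatments, DTG minus TG was 0.53 (SE 0.19, 0.11 to 0.96, limma adjusted p = 0.121). ISO minus vehicle was −0.017 (−0.62 to 0.58) in TG and 0.19 (−0.41 to 0.79) in DTG, with adjusted p of 0.999 and 0.961. The DTG value ran from 0.037 without DTG vehicle 2 to 0.35 without DTG vehicle 3, and it was −0.12 with scan as a block. Thus the intervals of Gk excluded 0 for genotype under ISO and on average, without passing the adjustment. Without both scan 3 arrays, an alternative added after the data were seen, DTG ISO minus TG ISO was 0.89 (limma adjusted p = 0.013) and DTG minus TG was 0.56 (adjusted p = 0.038), in a fit that called 30.5% and 13.9% of all probes. Without TG ISO 3 alone, DTG minus TG was 0.66 (adjusted p = 0.049), where 8.66% of all probes were called. With scan as a block they were 0.19 (adjusted p = 0.998) and 0.24 (adjusted p = 0.978), and within scan 2 the vehicle genotype difference was 0.071. After normexp background correction they were 0.19 and 0.15.

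Ldhal6b was dim. Its raw median signal was 57 to 61 on the 4 arrays of scan 1 and 45 to 62.5 on the other 8, so the raw levels overlapped. The median of the negative spots was 25 to 25.5 on scan 1 and 34 to 38 on the other 8, and the part of this background in the differences of Ldhal6b and Gk was not tested. Of its 240 spots, 177 were well above background. On TG vehicle 1, TG ISO 3 and DTG vehicle 1 at most 4 of 20 spots were, so 2 of 3 arrays measured the probe in each of those groups and all 3 in DTG ISO. It was −5.05, −4.16 and −4.32 in TG vehicle replicates 1 to 3 (−4.51 ± 0.47, SD, n = 3) and −4.17, −4.40 and −5.06 in TG ISO (−4.54 ± 0.46). It was −4.61, −4.23 and −3.82 in DTG vehicle (−4.22 ± 0.40) and −3.68, −3.69 and −3.91 in DTG ISO (−3.76 ± 0.13). As for Gk, the 4 scan 1 arrays were the 4 highest, from −3.91 to −3.68, with the other 8 at −4.16 or lower. The median SD among spots was 0.24.

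Ldhal6b was higher in DTG ISO than in TG ISO by 0.78 (SE 0.31, 95% interval 0.091 to 1.47, limma adjusted p = 0.151). Averaged over treatments, DTG minus TG was 0.54 (SE 0.22, 0.049 to 1.03, limma adjusted p = 0.151), but 0.055 with scan as a block (adjusted p = 0.992) and −0.078 after normexp background correction. The genotype difference under vehicle was 0.29 (−0.40 to 0.98, adjusted p = 0.864), and it ran from 0.024 without TG vehicle 1 to 0.49 without DTG vehicle 1, on both of which the probe was not well above background. With scan as a block it was 0.012. ISO minus vehicle was −0.030 (−0.72 to 0.66) in TG and 0.46 (−0.23 to 1.15) in DTG, with adjusted p of 0.999 and 0.853. The DTG value was 0.056 with scan as a block and −0.045 after normexp, and it ran from 0.26 without DTG vehicle 1 to 0.66 without DTG vehicle 3, the only vehicle array of scan 1. The DTG ISO minus TG ISO value was 0.52 without TG ISO 3, 0.098 with scan as a block (adjusted p = 0.998) and −0.059 after normexp background correction. Its sign thus turned under normexp, where the median of all probes was −0.078, against 0.12 in the main scaling. With the 11 other named control probes as the reference, the Ldhal6b value was 1.11 (adjusted p = 0.044). Under that reference 10.2% of all probes were called and the median of all probes was 0.45.

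**Figure D3:**
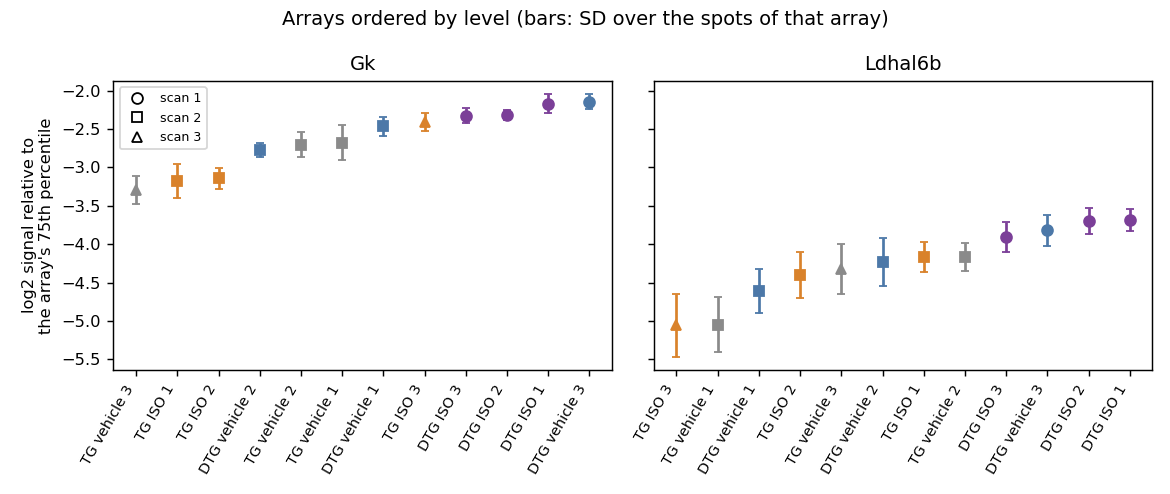
Log2 signal relative to the array's 75th percentile (y axis) of Gk and Ldhal6b, with the 12 arrays in rising order (x axis). Colours give the group, marker shape the scan, and bars the SD over that array's spots. The 4 arrays of scan 1, circles, are the highest for both probes.

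Counts over the 4 probes stood beside these shares of all probes tested. In TG ISO against TG vehicle 0 of 4 had an unadjusted limma p under 0.05, where 1.82% of all probes did, and 0 of 4 had groups that did not overlap, where 4.54% did. In DTG ISO against DTG vehicle both counts were 0 of 4, against 5.82% and 13.1% of all probes. In DTG vehicle against TG vehicle they were 0 of 4, against 5.24% and 7.71%. In DTG ISO against TG ISO they were 2 of 4, both higher in DTG ISO, against 26.7% and 37.8%, so differences between these groups were common across the array. In DTG against TG averaged over treatments 2 of 4 had an unadjusted p under 0.05, against 28% of all probes. The interaction and the mean ISO effect had 0 of 4, against 4.36% and 2.47%. At an adjusted p under 0.05 the share of all probes was 0.00443% in DTG vehicle against TG vehicle, 0.0709% in DTG against TG, and 0% in the other 5 comparisons. That share moved with the arrays used, to 5.92% in DTG ISO against TG ISO without TG vehicle 3 and 8.89% with those groups fitted alone, where no enzyme probe passed.

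The median difference of the 4 probes was −0.023 in TG ISO minus TG vehicle, where that of all probes was −0.0043. It was 0.30 in DTG ISO minus TG ISO, where that of all probes was 0.12. The interaction, the ISO effect in DTG minus that in TG, was −0.065 for Gapdh (95% interval −0.84 to 0.71), 0.49 for Ldhal6b (−0.49 to 1.46), −0.066 for G6pd2 (−0.72 to 0.59) and 0.21 for Gk (−0.64 to 1.06). Leaving out 1 array, the Ldhal6b value ran from 0.23 without TG ISO 3 to 0.76 without TG vehicle 1, and that of Gk from 0.053 without DTG vehicle 2 to 0.46 without TG ISO 3. With scan as a block they were 0.086 and −0.11, and after normexp 0.039 and 0.081. These intervals were wide and the 4 limma adjusted p-values were 0.928 or higher. In a two-sided exact permutation test within treatment, with 400 relabelings and a smallest possible p of 0.005, DTG minus TG had p = 0.025 for Gk and p = 0.04 for Ldhal6b, and both were 0.16 after adjustment over 8 tests. The relabelings did not keep to the scans. The 4 arrays of scan 1, all DTG, were the 4 highest for both probes, so this test cannot tell genotype from scan. For Gapdh and G6pd2 the same exact permutation test gave p = 0.96 and p = 0.27, and for ISO minus vehicle the 4 values lay between 0.37 and 0.66. With 3 arrays against 3 no exact test can go below 0.1.

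**Figure D4:**
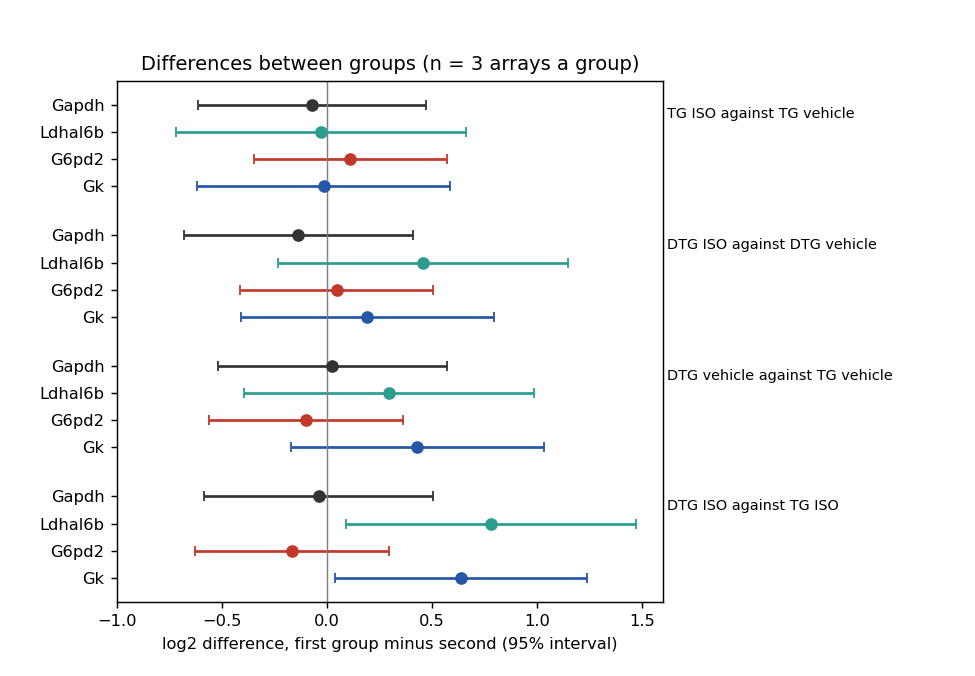
Log2 difference between group means, first group minus second (x axis), with its 95% interval from limma, for the 4 probes in the 4 two-group comparisons. Points are estimates from 3 arrays a group. The intervals of Ldhal6b and Gk in DTG ISO against TG ISO lie above 0 and the other 14 cross it.

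Among the TG arrays the ISO difference took opposite signs in the 2 scans for all 4 probes. Within scan 2, with 2 arrays a group, TG ISO minus TG vehicle was −0.41 for Gapdh, 0.39 for G6pd2, −0.47 for Gk and 0.32 for Ldhal6b, with limma adjusted p of 0.201 or higher, in a fit that called 11.5% of all probes. The share called was 17.1% without scan 3 and 11.6% with array weights, against 0% in the unweighted fit over all 12 arrays. Between the single arrays of scan 3 it was 0.61, −0.45, 0.89 and −0.74 in that order, with no test. The near-zero TG differences above are averages over these opposed values. Scan 3 held 1 array of each group, and the part of the scan in the difference was not tested. These are the arrays labelled TG vehicle 3 and TG ISO 3, each of which correlated better with the other group. Whether their labels are right was not tested, and every comparison here that uses a TG group takes the labels as given.

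Gapdh and G6pd2 moved in opposite directions across the 12 arrays, with Pearson's r of −0.77 (permutation p = 0.0033, adjusted over 6 pairs 0.020) and Spearman's rho of −0.73 (permutation p = 0.0090, adjusted 0.054). Without the 2 arrays farthest from the Gapdh median, DTG ISO 3 and TG ISO 2, r was −0.94, over the 9 arrays other than TG vehicle 3, TG ISO 1 and TG ISO 2 it was −0.61, and as deviations from the group means it was −0.84. After quantile normalization r was −0.24 and on the authors' log2 values 0.016, so the relation depends on the scaling. G6pd2 and Gk had r of −0.62 (permutation p = 0.032, adjusted 0.095) and rho of −0.35 (permutation p = 0.27, adjusted 0.32). Here TG vehicle 3, TG ISO 1 and TG ISO 2 formed a cluster of their own, lowest in Gk and highest in G6pd2. Without 2 of these, TG ISO 2 and TG vehicle 3, r was −0.19, and over the other 9 arrays it was 0.46. The arrays left out were those at the extremes, so the remaining ones span a narrower range, and the part of this in the change of r was not tested. Taken as deviations from the group means, r over the 12 arrays was −0.61, and it was −0.73 after quantile normalization (permutation p adjusted over 6 pairs 0.048) and −0.74 in the authors' values (adjusted 0.034). The r of the other 4 pairs ran from −0.49 (Gapdh with Ldhal6b) to 0.38 (Gapdh with Gk), with adjusted permutation p of 0.208 or higher. Gapdh with Gk was −0.30 over the 9 arrays and 0.64 as deviations from the group means. The 3 arrays on which Ldhal6b was not well above background were its 3 lowest and all lay among the 9, so its pairs are not given over the 9, and over all 12 they rest in part on those values. Ldhal6b with G6pd2 was 0.33 over all 12 and −0.15 without TG ISO 3 and TG vehicle 1, on neither of which Ldhal6b was well above background. Ldhal6b with Gk was 0.30 over all 12 and 0.65 without those same arrays. As deviations from the group means over all 12, Ldhal6b had r of 0.80 with G6pd2, −0.59 with Gapdh and −0.37 with Gk. Those values too rest in part on the 3 arrays where it was not well above background. The rho of the other 4 pairs over all 12 ran from −0.31 to 0.50, with adjusted permutation p of 0.295 or higher.

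**Figure D5:**
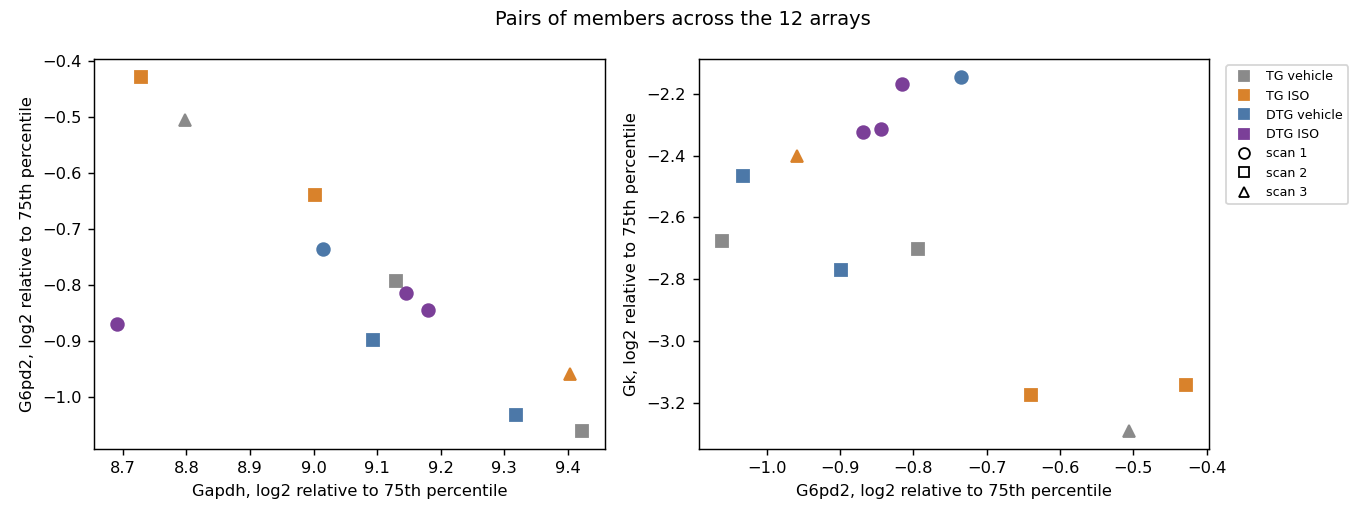
Log2 signal relative to the array's 75th percentile of G6pd2 against Gapdh (left) and of Gk against G6pd2 (right), 1 point an array. Colours give the group and marker shape the scan. TG vehicle 3, TG ISO 1 and TG ISO 2 sit apart at the lower right of the right panel, with r of −0.62 over all 12 arrays and 0.46 over the other 9.

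Likeness to the 11 other named control probes was taken as Pearson's r over the 12 arrays, which share one scaling, as a description with no p. Gk was most like Tfrc, the transferrin receptor, at 0.90, then Hprt at 0.38, and least like Gusb, lysosomal beta-glucuronidase, at −0.87. Over the 9 arrays other than TG vehicle 3, TG ISO 1 and TG ISO 2 these were 0.64, 0.39 and −0.44. G6pd2 was most like Gusb at 0.87 and Rpl13a, a protein of the large ribosomal subunit, at 0.75, and least like the chaperone Hsp90ab1 at −0.68. Over the 9 arrays those values were 0.19, −0.73 and −0.13, so the likeness of G6pd2 rested on the other 3. Gapdh was most like Hprt at 0.51 and Hsp90ab1 at 0.47 and least like Gusb at −0.67, with 0.46, 0.039 and −0.54 over the 9. Other values of Gapdh moved more over those 9, to 0.90 with Actb, 0.84 with Tuba1b, 0.81 with Rpl13a and 0.74 with Ppia, against 0.36, −0.13, −0.42 and −0.36 over all 12. Ldhal6b had no close match, with 0.24 for Tfrc, 0.062 for Nono and −0.46 for Tuba1b, values that rest in part on the 3 arrays where it was not well above background.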

How the data were processed

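Ribosomal RNA-depleted left ventricular RNA of 12 mice was labelled with Cy3 from random primers and hybridised to 1-colour arrays whose probes were designed on mm9. The authors deposited scanner output of Agilent Feature Extraction 11.0.1.1 (submitters' processing notes and file headers), whose processed signal is an intensity that the software had corrected for background and spatial trend on each array. The deposited series table holds log2 values for 60819 probes that the authors had normalized by a method not given in the sources used here. For this report, the 62939 spots of an array less control spots and 300 negative spots left 61200, and 908 outlier spots over the 12 arrays were dropped. Log2 processed signals were averaged per probe and reduced by the array's 75th percentile. A probe was tested where at least 50% of its spots were well above background on at least 3 arrays, which kept all 4 members. Group means were fitted with limma 3.58.1 in R 4.3.3 (8 residual degrees of freedom) and p-values adjusted by Benjamini-Hochberg across all genes tested, at a threshold of 0.05. Where a probe had no usable spot in a whole group, the comparison was left out, as for 2 of 45144 probes. Correlations used 100000 permutations. Replicates were separate mice, and their number limits the precision. Negative, background and normexp (offset 50) values came from spot medians. The code was tested on simulated data. The members and lists were chosen with earlier results of these data known: the text names the 4 members and, for each, the 2 most and the 1 least correlated named control probes, plus Actb, Tuba1b, Rpl13a and Ppia for Gapdh, chosen after their values were seen. Control probes were named through accessions without versions. Alternatives were other scalings, background correction, spot and probe filters, blocks, array weights, the methods' t-test and leaving out arrays. Protein sequences, pathway lists and cell type marker lists were not analysed here. Figures were drawn with matplotlib.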

Additional observations from a re-analysis of the deposited data

How the results depend on the processing

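Differences below are log2 values. The members' differences were mostly near 0, and their sign often turned. Where a member passed, the share of all probes called is given. With the mean of the 11 other named control probes as the reference, G6pd2 turned to −0.034 in TG ISO against TG vehicle. In DTG ISO against TG ISO it gave 0.29 for Gapdh, 0.16 for G6pd2 and 1.11 for Ldhal6b (adjusted p = 0.044, 10.2% of all probes called). It gave 0.18 for both Gapdh and G6pd2 in the interaction, and 0.20 and 0.071 in DTG against TG. With Gapdh as the reference, TG ISO against TG vehicle was 0.042 for Ldhal6b and 0.055 for Gk. Gapdh in DTG vehicle against TG vehicle was −0.032 after quantile normalization and −0.050 in the authors' values. The median of the spots gave 0.0048 for Gapdh in DTG against TG. Normexp gave Ldhal6b −0.045 in DTG ISO against DTG vehicle, −0.098 in DTG vehicle against TG vehicle, −0.059 in DTG ISO against TG ISO, −0.065 for mean ISO and −0.078 for DTG against TG. It gave Gk −0.0017 in DTG ISO against DTG vehicle and −0.042 for mean ISO, and Gapdh 0.035 in DTG ISO against TG ISO and 0.046 in DTG against TG.

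With scan as a block, Gapdh was 0.16 in DTG ISO against TG ISO, 0.062 in the interaction and 0.13 in DTG against TG, and with slide as a block 0.15, 0.062 and 0.12. Both blocks gave −0.11 for G6pd2 and −0.12 for Gk in DTG ISO against DTG vehicle, −0.11 for Gk in the interaction and −0.070 for Gk in mean ISO. Within scan 1, which held a single DTG vehicle array, the first 2 values are the same by construction. Within scan 2, Ldhal6b was 0.32 in TG ISO against TG vehicle and Gapdh −0.070 in DTG vehicle against TG vehicle. Array weights, of which TG ISO 1 had the highest (5.38) and TG vehicle 3 the lowest (0.182), gave 0.53 for Ldhal6b (adjusted p = 0.024) and 0.91 for Gk (adjusted p = 0.00022) in DTG ISO against TG ISO, where they called 59.7% of all probes, and 0.57 for Gk (adjusted p = 0.012) in DTG against TG, where they called 26.8%. They gave Gapdh −0.034 in DTG vehicle against TG vehicle, 0.13 in DTG ISO against TG ISO, 0.16 in the interaction and 0.046 in DTG against TG, Ldhal6b 0.36 in TG ISO against TG vehicle and Gk −0.066 in mean ISO. The methods' t-test without adjustment passed Ldhal6b in DTG ISO against TG ISO (0.78), with 26.6% of all probes. Without scan 3, chosen after seeing the data, Gk passed at 0.89 in DTG ISO against TG ISO and 0.56 in DTG against TG (30.5% and 13.9% of all probes called), and was −0.14 in mean ISO. Ldhal6b was then 0.32 in TG ISO against TG vehicle and G6pd2 0.039 in DTG vehicle against TG vehicle, and Gapdh was −0.13, 0.14, 0.27 and 0.0032 in DTG vehicle against TG vehicle, DTG ISO against TG ISO, the interaction and DTG against TG.

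Leaving out 1 array at a time, TG ISO against TG vehicle ran from −0.25 to 0.086 for Gapdh, −0.30 to 0.23 for Ldhal6b, −0.026 to 0.25 for G6pd2 and −0.27 to 0.12 for Gk. DTG ISO against DTG vehicle ran from −0.22 to 0.021 for Gapdh and −0.026 to 0.12 for G6pd2, and DTG vehicle against TG vehicle from −0.13 to 0.18 and −0.24 to 0.039. Gapdh ran from −0.20 to 0.14 in DTG ISO against TG ISO and from −0.086 to 0.083 in DTG against TG. The interaction ran from −0.22 to 0.11 for Gapdh and −0.21 to 0.071 for G6pd2, and mean ISO from −0.038 to 0.17 for Gk. Gk in DTG against TG ran from 0.43 to 0.66, passing only without TG ISO 3, where 8.66% of all probes were called. The r of Gapdh with G6pd2 was −0.24 under quantile normalization and 0.016 in the authors' values, that of Gapdh with Gk −0.27 and −0.42, and that of G6pd2 with Gk −0.73 (adjusted p = 0.048) and −0.74 (adjusted p = 0.034). The cause of these changes was not tested. Same-numbered arrays of different groups had correlations of −0.77 to 0.18 (median −0.040) in their deviations from the group means. Differently numbered arrays had −0.41 to 0.66 (median 0.025). Whether the replicate numbers pair the samples is not settled by these values, because the deviations of a group are tied together by its mean. With the replicate block, Gk in DTG ISO against TG ISO was 0.64 (limma adjusted p = 0.250), and no call of a member changed. Ldhal6b has no value under the filter on all 12 arrays. Ldhal6b is the member that signal over background limits most, with 177 of 240 spots well above it.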
